A study of Arabidopsis thaliana with 4 samples.

Results

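The 10 genes described here are transcripts known to rise when plant mitochondria are disturbed: UPOX (AT2G21640), OM66 (AT3G50930), DIC2 (AT4G24570), HSP23.5 (AT5G51440), GSTU24 (AT1G17170), GSTU25 (AT1G17180), UGT74E2 (AT1G05680), SOT12 (AT2G03760), a MATE transporter gene (AT2G04050) and ABCB4 (AT2G47000). They were chosen by name, with earlier results of these data known, each through 1 probe set. The Affymetrix ATH1 array holds 22746 probe sets for plant transcripts. It is a 1-colour array that reads each transcript with a set of short probes. The pairing of probe set and locus is the one that defined the list. It was not checked against an annotation of the array here, while all 10 loci were found as protein-coding genes in the RefSeq gene table (TAIR10.1).

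Rosette leaves of wild-type Arabidopsis thaliana were compared with those of AS12, a line of the accession Col-0 that carries an antisense construct against AOX1a (At3g22370) under control of the viral 35S promoter, which is active in nearly all plant tissues. The AOX1a protein is a terminal oxidase in the inner mitochondrial membrane that bypasses the cytochrome pathway. The comparison therefore concerns 1 transformed line, and the labels name no accession for the wild type. All plants grew in soil-less mix without fertilizer at 23 °C, in 350 µmol photons per square metre and second of light for 14 h a day, and leaves were taken 21 days after sowing, shortly before noon. There were 2 arrays per genotype. RNA of several plants was pooled for each: 7 (wild type 1), 9 (wild type 2), 9 (antisense 1) and 8 (antisense 2).

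In plants, a block of the respiratory chain is answered by a change of nuclear gene expression called mitochondrial retrograde signalling. A NAC transcription factor held in the membrane of the endoplasmic reticulum, ANAC017, is released and acts with other factors on a shared set of target genes, among which AOX1a is the best known marker. The other targets include proteins of the mitochondrion itself as well as enzymes and transporters that conjugate and export reactive or toxic compounds and plant hormones. Antimycin A, an inhibitor of the cytochrome pathway, is the usual laboratory trigger.

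Of the 10 genes, DIC2, OM66 and SOT12 read higher on both antisense arrays than on both wild-type arrays at signals clear of the array's negative controls, by 3.57-fold, 1.95-fold and 1.52-fold on average. UPOX, a widely used marker of the response, had overlapping genotypes. The remaining 6 genes (HSP23.5, GSTU24, GSTU25, UGT74E2, the MATE gene and ABCB4) read no higher on any array than the highest signal, over the 4 arrays together, of probe sets that have no plant target. No gene passed the test across all probe sets, in which limma called 0 (0%) of 13648 tested probe sets higher and 0 (0%) lower at a Benjamini-Hochberg adjusted p of 0.05, so none of these differences is a call in that fit.

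Several facts of the 4 arrays bear on every value below. The authors had scaled the signals to one level, with a trimmed mean (2% off each end) of 500.05 on every array. Across the tested probe sets, which are not independent replicates, the pair of wild-type arrays correlated at 0.970 and the antisense pair at 0.958. Closer than either were antisense 1 to wild type 2 (0.975) and antisense 2 to wild type 1 (0.974). Of 6 ratios of 3' to 5' signal in actin, GAPDH and ubiquitin, which rise when RNA is degraded, 1 separated the genotypes. That GAPDH ratio was 1.08 and 1.12 for wild type, and 1.17 and 1.28 for antisense. Other ratios were larger. An actin ratio was 4.74 and 4.15 on wild type 1 and 2, and 5.40 and 4.11 on antisense 1 and 2. A ubiquitin ratio was 4.68, 3.16, 3.45 and 3.82 in the same order. Antisense 1 was thus highest for that actin ratio, and wild type 1 for that ubiquitin ratio. The part of these differences in the results was not tested. The AOX1a transcript and markers of leaf and other tissues were not analysed here, so neither the antisense label nor the tissue was checked. The 27 probe sets for Bacillus transcripts, which no plant RNA should bind, read between 0.3 and 97.2 with a median of 7.15, and serve below as the level of no target. Against the highest of them on the same array (42.8 to 97.2), ABCB4 was above on 3 arrays, GSTU24 and HSP23.5 on 1 each, and GSTU25, UGT74E2 and the MATE gene on 0 of 4.

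**Figure D1:**
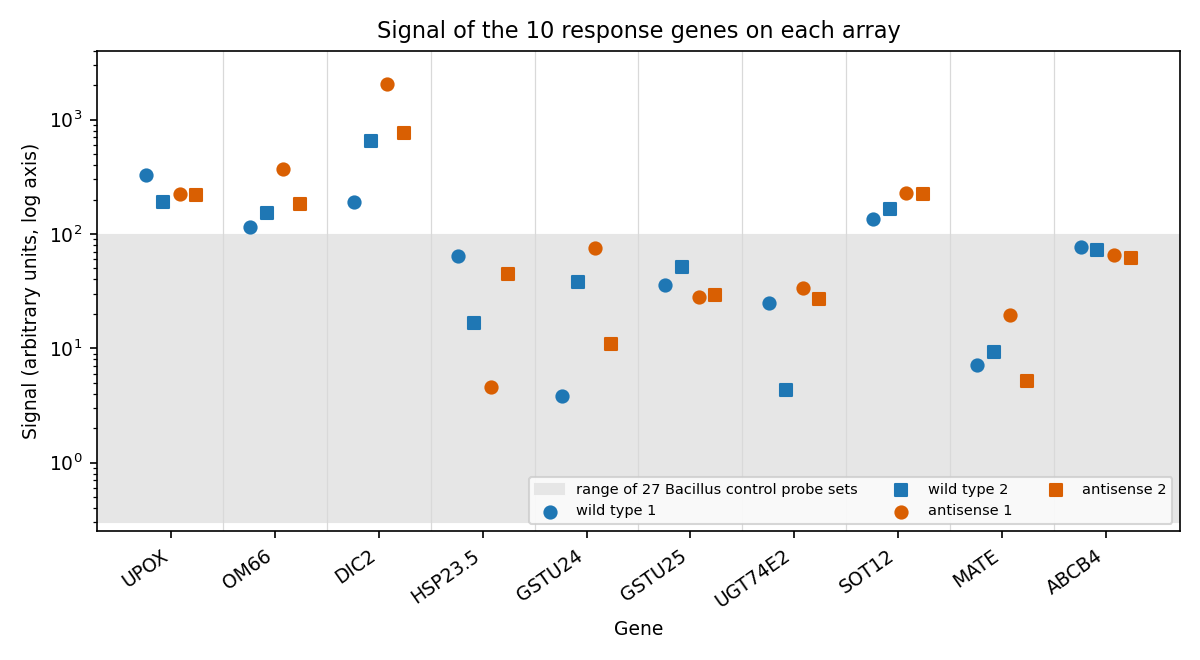
Deposited signal (arbitrary units, log axis) of the 10 genes on each of the 4 arrays, with circles for arrays numbered 1 and squares for arrays numbered 2, blue for wild type and orange for antisense. The grey band is the range of the 27 Bacillus control probe sets over the 4 arrays together, 0.3 to 97.2. UPOX, OM66, DIC2 and SOT12 lie above the band on all 4 arrays, and the other 6 genes lie inside it.

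DIC2, which encodes a dicarboxylate carrier of the inner mitochondrial membrane that moves malate and related acids, had the highest mean signal of the 10 genes in both genotypes, and its arrays spread more widely than those of the other genes above the controls. Its probe set (254120_at) read 190.3 and 655.3 on wild-type arrays 1 and 2, and 2064.2 and 768.6 on antisense arrays 1 and 2. The groups did not overlap, but wild type 2 and antisense 2 lay close together, 1.17-fold apart, while antisense 1 and wild type 1 were 10.8-fold apart. In terms of rank among all plant probe sets of the same array, DIC2 went from the 52.3rd percentile on wild type 1 and the 78.1st on wild type 2 to the 81.5th on antisense 2 and the 92.7th on antisense 1.

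The mean signal of DIC2 was 1416 ± 916 with the antisense construct and 422.8 ± 329 without it (SD, n = 2). The log2 difference was 1.83 (SE 0.67, 95% interval 0.21 to 3.46), with a limma p of 0.032 before and 0.99995 after Benjamini-Hochberg adjustment. Only 20 of the 13648 tested probe sets had a larger difference toward the antisense line. The arrays of 1 genotype also differed widely, by 3.44-fold in the wild type and 2.69-fold in the antisense line. With plant probe sets ranked by mean signal into 5 classes of equal size, those in the class of DIC2 differed by a median of 1.16-fold and 1.20-fold, with a 90th percentile of 1.51-fold and 1.65-fold. Leaving out wild type 1 lowered the log2 difference between genotypes to 0.94, and leaving out antisense 1 lowered it to 1.12. It was 2.73 when wild type 2 was left out and 2.55 when antisense 2 was. DIC2 was called under 1 alternative, chosen after seeing the data. It paired wild type 1 with antisense 2, and wild type 2 with antisense 1, as blocks. These pairs of opposite genotype correlated most closely across the tested probe sets, which is not the order by DIC2 signal. In bulk leaf RNA, a change per cell and a change in the share of cells that hold a transcript cannot be told apart, here and for the other genes.

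OM66 encodes an AAA-type ATPase of the outer mitochondrial membrane and carries the name BCS1 in the RefSeq table. Its probe set (252131_at) read 116.1 and 153.8 in the wild type, and 368.6 and 184.1 in the antisense line, in the order of array numbers. Antisense 1 stood apart, and antisense 2 was 1.20-fold above wild type 2. The mean was 276.4 ± 130 against 134.9 ± 26.7 (SD, n = 2). The log2 difference was 0.96 (SE 0.37, interval 0.06 to 1.87), with a limma p of 0.040 unadjusted and 0.99995 adjusted by Benjamini-Hochberg. It fell to 0.46 without antisense 1 and was 1.46 without antisense 2. The antisense arrays differed by 2.002-fold, where the median for probe sets of that signal level was 1.24-fold.

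UPOX, a small mitochondrial protein named for its rise under oxidative stress, showed another order of arrays. Its probe set (263515_at) read 328.6 and 188.4 in the wild type and 224.9 and 218.1 in the antisense line. Both antisense arrays lay between the wild-type arrays, so the genotypes overlapped. The log2 difference was -0.17 (SE 0.30, interval -0.90 to 0.57, limma adjusted p 0.99995), which allows any value from 0.54-fold to 1.48-fold of the wild type. The antisense arrays were within 1.03-fold of each other and the wild-type arrays 1.74-fold apart. Without wild type 1 the log2 difference turned to 0.23.

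HSP23.5, a small heat shock protein of the mitochondrial matrix, read in the range of the controls. Its probe set (248434_at) read 64.0 and 16.6 in the wild type and 4.6 and 44.4 in the antisense line. The genotypes overlapped, and the arrays of 1 genotype differed by up to 9.65-fold.

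Among the enzymes that modify hormones and toxic compounds, SOT12 was the one that read above the Bacillus controls on all 4 arrays. SOT12 is a cytosolic sulfotransferase that acts on brassinosteroids and on salicylic acid. Its probe set (264042_at) read 135.4 and 164.5 in the wild type and 230.1 and 224.9 in the antisense line. Both antisense arrays were above both wild-type arrays, by at least 1.37-fold in every pair and by at most 1.70-fold. The antisense arrays agreed within 1.02-fold and the wild-type arrays within 1.21-fold, so that the genotypes were farther apart than the arrays of either. The mean was 227.5 ± 3.68 against 149.9 ± 20.6 (SD, n = 2).

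The log2 difference of SOT12 was 0.61 (SE 0.23, interval 0.05 to 1.16). Its limma p was 0.037 before and 0.99995 after Benjamini-Hochberg adjustment, and 385 tested probe sets had a larger difference in the same direction. Leaving out 1 array gave log2 differences of 0.47 to 0.75, a narrower range than for DIC2, OM66 or UPOX. By rank among all plant probe sets, SOT12 stood at the 45.6th and 48.7th percentile in the wild type and at the 55.4th and 56.3rd in the antisense line.

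GSTU24 and GSTU25, which stand next to each other in the genome, encode glutathione S-transferases of the plant-specific tau class and are known for detoxification of foreign compounds. GSTU24 (262518_at) read 3.8 and 37.7 in the wild type and 75.2 and 10.8 in the antisense line, so the groups overlapped and arrays of the wild type differed by 9.92-fold. GSTU25 (262517_at) read 35.7 and 51.7 in the wild type and 28.1 and 29.5 in the antisense line. Its antisense arrays were both below the wild-type arrays, but all 4 values were within the range of the Bacillus controls, so no fold is drawn from them.

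UGT74E2, a glucosyltransferase of the auxin precursor indole-3-butyric acid, is among the most strongly induced genes of this response under antimycin A. Here its probe set (263231_at) read 24.7 and 4.3 in the wild type and 33.8 and 27 in the antisense line. The antisense arrays were the higher ones, but antisense 2 lay close to wild type 1 and all 4 values lay in the control range.

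The transporters were dim as well. The MATE gene, of a family that exports organic compounds, read 7.1 and 9.3 in the wild type and 19.5 and 5.2 in the antisense line (263403_at), with overlapping groups. ABCB4, an auxin transporter best known from roots, read 76.1 and 72.7 in the wild type and 64.8 and 61.6 in the antisense line (266752_at). It was the steadiest of the 10 genes, with arrays of 1 genotype within 1.05-fold of each other. Both antisense arrays of ABCB4 were below both wild-type arrays, at signals under the highest Bacillus control of 97.2, so no fold between genotypes is drawn from them.

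**Figure D2:**
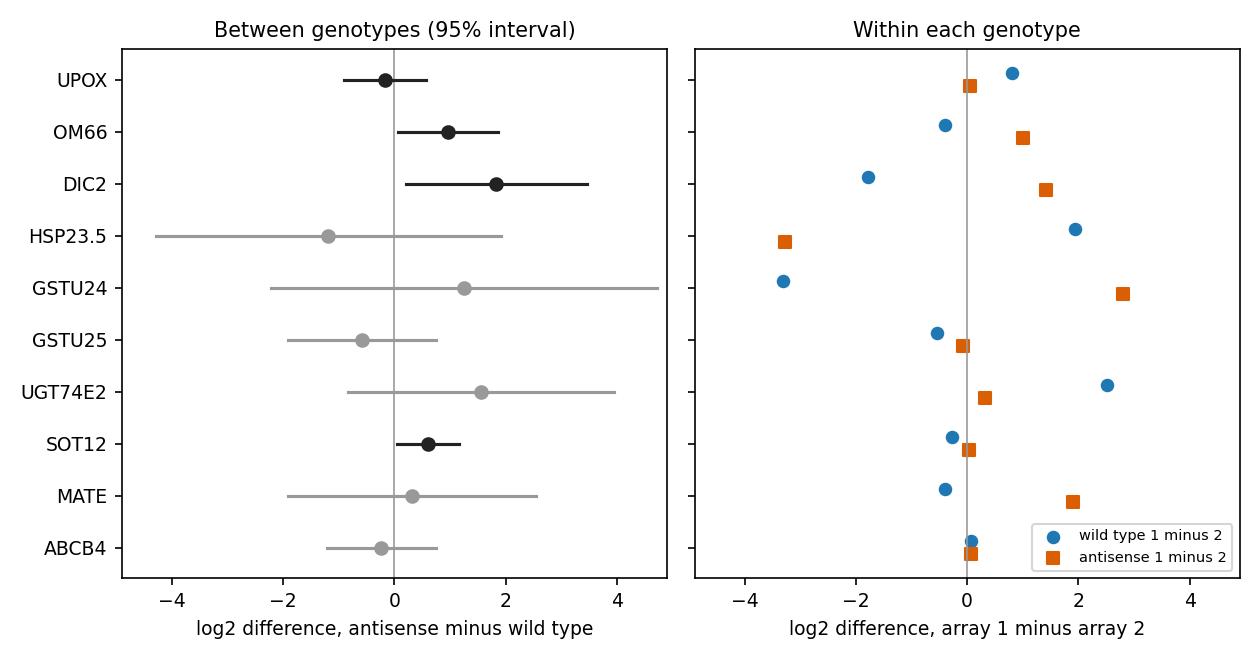
Left, the log2 difference between genotypes (antisense minus wild type, 2 arrays each) with its 95% interval from limma, in black for genes that passed the low-level filter and in grey for those below it. Right, the log2 difference between the 2 arrays of the wild type (blue circles) and of the antisense line (orange squares). Intervals of DIC2, OM66 and SOT12 lie above 0. HSP23.5, GSTU24 and the MATE gene differ more within each genotype than between genotypes.

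Of all 10 genes, 4 had both antisense arrays above both wild-type arrays (DIC2, OM66, SOT12 and UGT74E2), against 12.4% of the 22746 plant probe sets. Another 2 (GSTU25 and ABCB4) had both below, against 16.6%, and 4 overlapped. No gene of the 10 reached 1.5-fold in each of the 4 ratios of antisense to wild-type arrays, a mark that 2.37% of plant probe sets met in the higher and 2.15% in the lower direction. The median log2 difference of the 10 genes was 0.46, beside -0.03 over all plant probe sets. That median mixes genes above the Bacillus controls with dim genes, and it was 0.15 without antisense 1 and 0.94 without antisense 2. At an unadjusted limma p of 0.05, 3 of the 10 genes passed (DIC2, OM66 and SOT12). They belong to the 4 genes among the 13648 tested probe sets, of which 379 (2.78%) passed. The other 6 genes take their p from the fit without a filter. All 10 were chosen with earlier results of these data known, so the shares in this paragraph are not a test of the list.

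The order of the arrays was shared by part of the genes. DIC2, OM66 and SOT12 all read lowest on wild type 1, followed by wild type 2, antisense 2 and antisense 1. Of the 22746 plant probe sets, 923 (4.06%) showed that order. These genes were already among those with both antisense arrays higher, and 923 of 2816 such plant probe sets held it. Antisense 1 held the highest value for 6 of the 10 genes, against 26.8% of plant probe sets, and antisense 2 for 0 of 10. Of those 6, UGT74E2, the MATE gene and GSTU24 read within the range of the Bacillus controls over the 4 arrays together. For 6 of the 10 genes the arrays of at least 1 genotype were farther apart than the means of the genotypes.

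**Figure D3:**
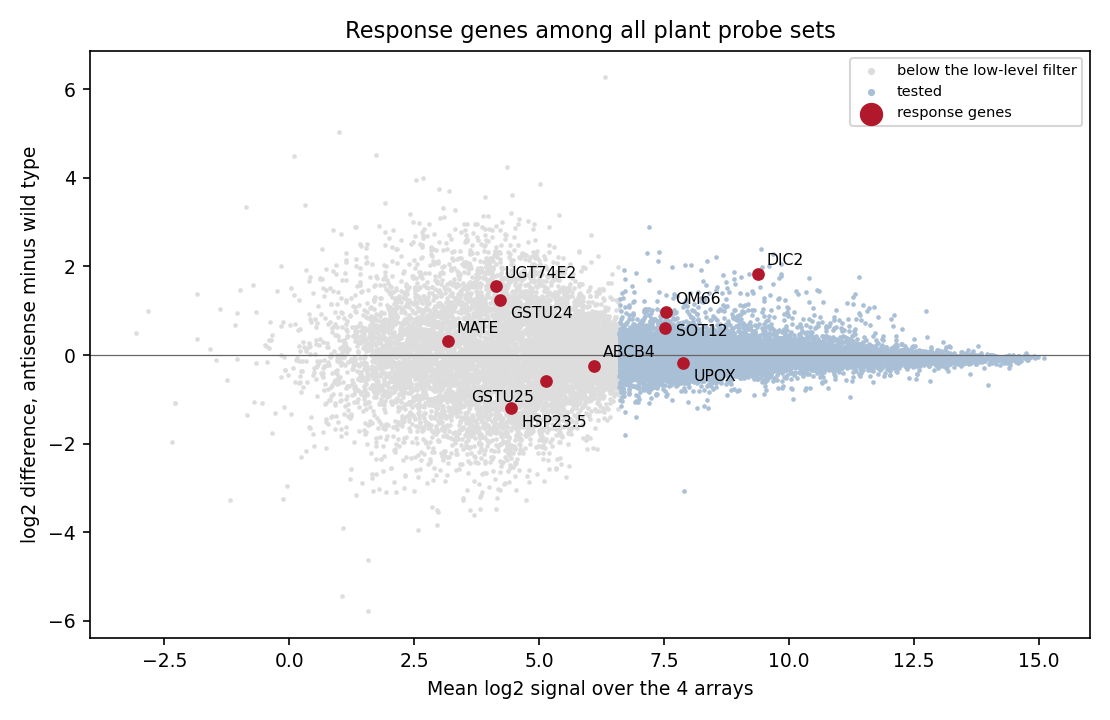
Log2 difference between genotypes (antisense minus wild type) against the mean log2 signal over the 4 arrays, for all 22746 plant probe sets, of which 13648 (blue) passed the low-level filter. The 10 response genes are marked in red. DIC2 lies at the upper edge of the probe sets of its level, while UPOX lies near 0. UGT74E2, the MATE gene, GSTU24 and HSP23.5 lie where differences scatter most, and GSTU25 and ABCB4 at a higher level with less scatter.

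The spread between arrays depended on signal level and on the gene. In the lowest of the 5 signal classes, which holds UGT74E2, the MATE gene, GSTU24 and HSP23.5, the median difference between the 2 wild-type arrays was 1.92-fold, against 1.20-fold in the class that holds UPOX, OM66 and SOT12. The 95% interval reached a factor of 11.1 to either side of the estimate for GSTU24, 8.60 for HSP23.5, 5.24 for UGT74E2 and 4.69 for the MATE gene. It reached 2.51 for GSTU25 and 1.98 for ABCB4. For the genes above the Bacillus controls the factor was 1.47 (SOT12), 1.66 (UPOX), 1.87 (OM66) and 3.08 (DIC2). A difference of several fold in the first 4 genes would thus not be detectable on these arrays.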

How the data were processed

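The authors' deposited values are signal intensity per probe set and array, linear and scaled per array. Per the labels' descriptions they were collected with Affymetrix MicroArray Suite 5.0 from RNA pools. No detection calls were used.

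The signals were log2-transformed without an offset. The 64 control probe sets were set aside, the 40% of the other 22746 probe sets with the lowest mean log2 signal were left out, and 13648 were tested with limma 3.58.1 in R 4.3.3 (lmFit, eBayes with intensity trend, Benjamini-Hochberg, threshold 0.05). This left in 4 of the 10 genes. The other 6 take their estimates from the same fit without a filter. All probe sets of the 10 genes end in plain _at. The fit was tested on simulated data.

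The number of arrays limits the precision: 2 against 2 arrays cannot give an exact two-sided p below 0.333. Nothing in the labels says that the RNA pools came from separate growth experiments, so p-values measure the spread between these samples. Equal replicate numbers were not treated as pairs.

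The genes and lists were chosen with earlier results of these data known. Named genes are all 10 of the list. Lists of regulators, gene families, AOX genes and tissue markers were planned but not analysed, because no table used here pairs their probe sets with loci. Of the 10 loci, 7 carry the given name in the RefSeq table; UPOX, HSP23.5 and MATE are names from the list. Alternatives were other scaling, an offset of 8.1, other filters and variance models, a replicate block, a threshold of 0.1, leaving out _s_at and _x_at probe sets, and leaving out each array.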

Additional observations from a re-analysis of the deposited data

How the results depend on the processing

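None of the 10 genes was called under the 14 alternatives other than the crossed pairing below, of which 4 leave out an array, so that a lone array is assumed to vary like the others. The 60% filter left DIC2 as the sole gene tested (median 1.83, 1 higher and 0 lower without overlap). DIC2, OM66, SOT12, UGT74E2, GSTU25 and ABCB4 kept their direction in every alternative that held them. These are the genes whose groups did not overlap, so leaving out 1 array could not turn their sign. The filters, variance models, block and threshold leave the estimate itself unchanged. Without wild type 1, UPOX turned to 0.23 and GSTU24 to -0.40. Without antisense 1, GSTU24 turned to -0.15, the MATE gene to -0.64 and HSP23.5 to 0.45. Over the 4 arrays left out in turn, log2 differences ran from -0.57 to 0.23 for UPOX, -0.40 to 2.91 for GSTU24, -0.64 to 1.26 for the MATE gene and -2.82 to 0.45 for HSP23.5. UGT74E2 ran from 0.29 without wild type 2 to 2.81 without wild type 1, and was 0.93 with the offset. Leaving out 1 array gave 4 to 6 genes higher and 2 to 4 lower without overlap, 0 to 4 higher and 0 to 1 lower at 1.5-fold in all remaining pairs (fewer pairs have to be met), and a median of 0.15 to 0.94. The replicate block called 0 probe sets and changed no call; deviations from the genotype mean correlated at -0.42 between arrays of equal number. Over all probe sets, calls at adjusted p 0.05 were 0 higher and 1 lower under quantile normalization, median scaling and without probe sets ending _s_at or _x_at (likewise 0 and 1 as deposited at a threshold of 0.1), 1 and 1 with the offset, 0 to 11 higher and 0 to 2 lower without 1 array, and 42 and 2 with a crossed pairing (wild type 1 with antisense 2) chosen after seeing the data, which called 1 of the 10 genes, DIC2. The cause was not tested.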
